A study of Sus scrofa with 32 samples.

Results

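The genes described here encode the proteins of the mitochondrial ribosome, as measured in the fetal liver of Pietrain pigs. They were taken by name: every probe set annotated to exactly 1 symbol that begins with MRPL or MRPS and a digit, with 1 probe set per gene, the one with the highest mean signal over all arrays. This gave 58 genes among the 6765 genes that have a probe set with a single symbol, 36 of them with an MRPL and 22 with an MRPS symbol, and all 58 passed the filter on low signal. MRPS18A, MRPL12 and MRPL41 had no such probe set and were not analysed here. Total RNA of 32 livers was hybridised to porcine Affymetrix expression arrays, 1 array per sample. The groups were fetuses of gilts on the methyl diet and fetuses of gilts on the control diet, at 35 days post conception (dpc; 5 and 5 arrays), 63 dpc (6 and 6) and 91 dpc (5 and 5). No genotype, transgene or treatment other than the gestation diet is given. The offspring came from 5 to 6 gilts per stage, but the labels tie no array to a gilt, litter or sex, so p-values measure the spread between these samples.

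Mitochondria translate the few messages of their own genome, which all encode core subunits of the respiratory chain and the ATP synthase, on ribosomes that differ from those of the cytosol. The RNA of these ribosomes is made in the mitochondrion, whereas every protein is encoded in the nucleus, made in the cytosol and imported. Part of the proteins descend from those of bacterial ribosomes, and the others are found in mitochondria only. In the mid-gestation fetus the liver is a blood-forming organ, and it later loses its erythroid cells while hepatocytes mature.

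Values are the deposited log2 signals, so a difference of 1 is a 2-fold change. A limma fit with 1 mean per group of age and diet was made over 15327 probe sets. A difference is said to have passed, or a gene to have risen or fallen, where the Benjamini-Hochberg adjusted p over all of them was under 0.05. Signals of different probe sets are not on a common scale of transcript number and are not set against each other. The tissue label was borne out by hepatocyte messages at every age: ALB, which encodes albumin, averaged 11.4 at 35 dpc, 14.8 at 63 dpc and 15.3 at 91 dpc. Spike-in control probe sets parted the arrays into 18 with a wide and 14 with a narrow gap between bioC and bioB (1.39 to 1.83 against 0.16 to 0.39), with both kinds in every group. These are called the high-gap and low-gap arrays.

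Mitochondrial ribosomal protein genes fell as the fetal liver aged. Between 35 and 91 dpc 46 of the 58 fell, 7 rose and 5 did not pass, with a median log2 difference of -1.08. Of all probe sets tested 39.1% were lower and 40.8% higher in the same contrast, around a median of 0.005. Among the 5593 tested genes with a name, each by its brightest probe set, 50.1% were lower and 33.6% higher, around a median of -0.25. More than 2-fold lower levels at 91 dpc were seen for 32 members, against 18.3% of all probe sets. More than 2-fold higher levels were seen for 3 members, against 25.8% of all probe sets.

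The fall was spread over both intervals. From 35 to 63 dpc 43 members were lower at the later age and 6 higher, with a median difference of -0.54. In that interval 28% of all probe sets and 38.5% of named genes were lower, and 32.5% and 30.4% were higher. From 63 to 91 dpc 44 members were lower and 3 higher, with a median difference of -0.52. There 29.0% of all probe sets and 39.8% of named genes were lower, and 29.5% and 22.6% were higher. The same 41 members fell in each interval, against 19.0% of all probe sets that did so. The first interval held the larger fall, or the smaller rise, for 33 members and the second for 25.

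**Figure D1:**
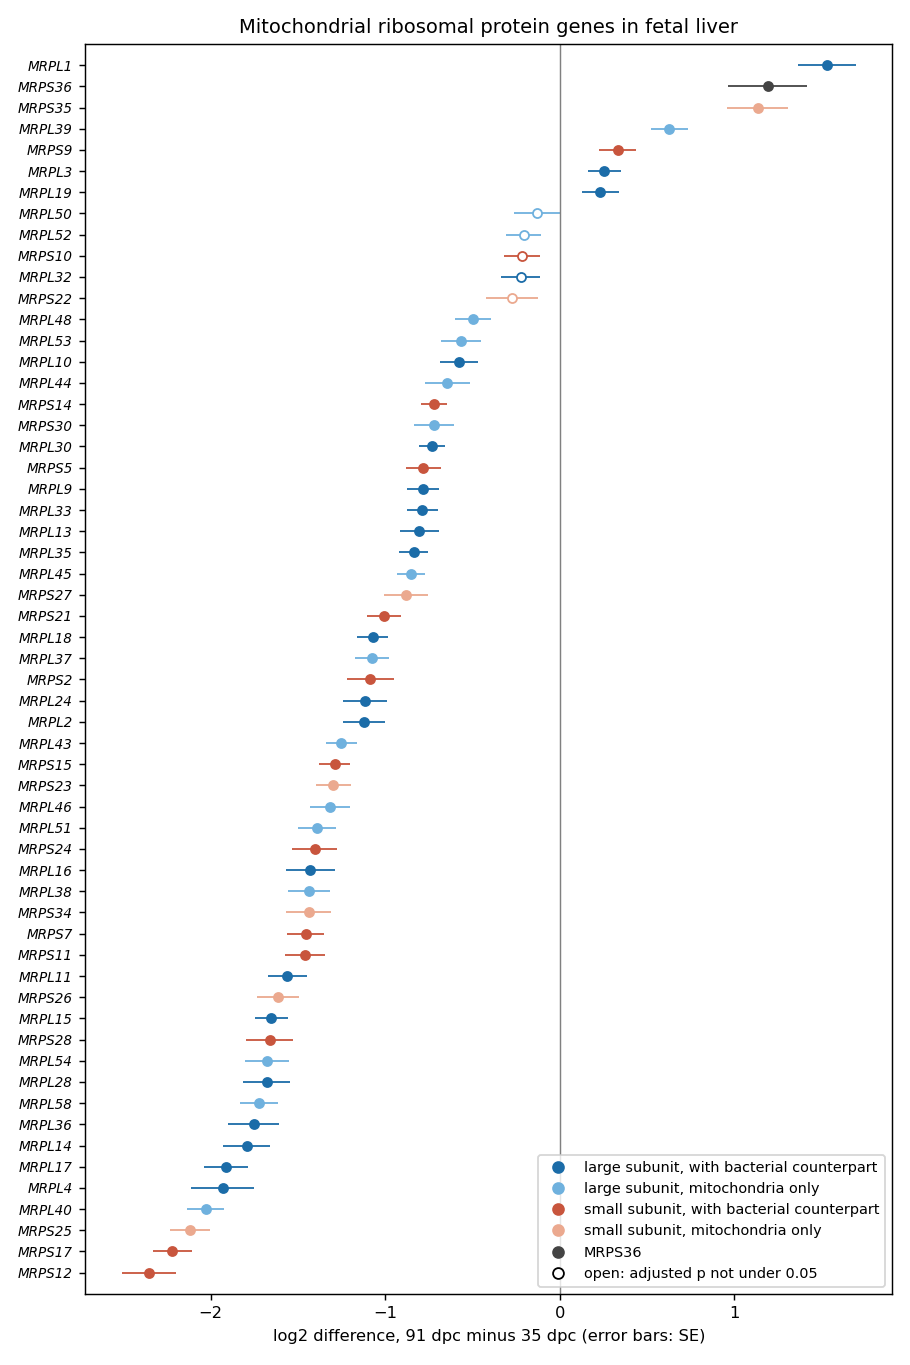
The log2 difference of each of the 58 genes, 91 dpc minus 35 dpc averaged over diets, is plotted with its standard error, coloured by ribosomal subunit and descent. The points run from MRPS12 at -2.35 to MRPL1 at 1.53, with MRPL19, MRPL3 and MRPS9 just above 0 and MRPL39, MRPS36, MRPS35 and MRPL1 further to the right. Open points are the 5 genes that did not pass.

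The largest falls came from the small subunit. MRPS12, whose bacterial counterpart lies at the decoding centre and is altered in streptomycin-resistant strains, ranged from 9.29 to 10.3 with a median of 9.52 on the 10 arrays at 35 dpc. Its lowest, median and highest signals were 7.97, 8.44 and 9.15 on the 12 arrays at 63 dpc and 6.80, 7.28 and 7.75 on the 10 arrays at 91 dpc. The 3 ages did not overlap. The log2 difference between 91 and 35 dpc was -2.35 ± 0.16 (SE), a 5.10-fold fall (limma adjusted p = 2.47e-14). It was the member with the largest fall, and 3 probe sets measured it.

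MRPS17, a protein with a bacterial counterpart that binds the ribosomal RNA of the small subunit, behaved alike. Its signals ranged over 9.70 to 10.2 at 35 dpc (median 9.94), over 8.27 to 9.27 at 63 dpc (median 8.80) and over 7.40 to 8.02 at 91 dpc (median 7.71). Again no array of one age reached into the next. The differences were -1.17 ± 0.11 in the first and -1.05 ± 0.11 in the second interval, both past the limma threshold. MRPS25, a small subunit protein found in mitochondria only, had medians of 10.2, 9.23 and 8.16 at the 3 ages, and the ages did not overlap. Its fall by 91 dpc was -2.12 ± 0.11.

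Other members of the small subunit fell by less. MRPS28, MRPS26, MRPS11, MRPS7, MRPS34 and MRPS24 had differences of -1.66 to -1.40 between 91 and 35 dpc. MRPS15, MRPS23, MRPS2 and MRPS21 had differences of -1.30 to -1.01. MRPS27, a protein with the pentatricopeptide repeats known from RNA binding, MRPS5 and MRPS14 had differences of -0.88, -0.78 and -0.72. All of these passed. Of the 13 small subunit members with a bacterial counterpart 11 fell and 1 rose, with a median of -1.29, and of the 7 without one 5 fell and 1 rose, with a median of -1.30.

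In the large subunit MRPL40, which lies in the human deletion of DiGeorge syndrome, had the largest fall. Its signals ran from 9.05 to 9.72 at 35 dpc, from 7.83 to 8.65 at 63 dpc and from 7.09 to 7.66 at 91 dpc, with no overlap between ages. The difference between 91 and 35 dpc was -2.03 ± 0.11 (limma adjusted p = 1.51e-16). MRPL4 (-1.93 ± 0.18) and MRPL17 (-1.91 ± 0.13), both with bacterial counterparts, followed. MRPL4 was also the member with the largest difference between the high-gap and low-gap arrays, -0.62, and its fall was -1.97 on the high-gap and -1.87 on the low-gap arrays.

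MRPL58, which in humans frees stalled ribosomes by cutting the chain from its tRNA, had the largest fall of the first interval. Its signals ran from 7.63 to 8.21 at 35 dpc, from 6.39 to 7.38 at 63 dpc and from 5.99 to 6.54 at 91 dpc. The 63 dpc arrays all lay below the 35 dpc arrays, and overlapped those at 91 dpc. The differences were -1.20 ± 0.10 in the first and -0.52 ± 0.10 in the second interval. MRPL36, the counterpart of the smallest bacterial large subunit protein, fell about as much in each interval (-0.82 and -0.93).

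MRPL14 fell by 1.79 on the log2 scale between 35 and 91 dpc. In humans it is the docking site of MALSU1, a factor of large subunit assembly, whose gene had a difference of -1.28 (limma adjusted p = 2.88e-14). MRPL11 and MRPL10 form the base of the stalk that recruits translation factors: MRPL11 had a difference of -1.56 and MRPL10 of -0.58. MRPL10 passed in the first interval (-0.41) and not in the second (-0.17 ± 0.10). MRPL45, which in humans holds the ribosome to the inner membrane, had a difference of -0.85 ± 0.08, and every 91 dpc array lay below every array of the earlier ages.

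Most other large subunit members fell more moderately. MRPL28, MRPL54, MRPL15, MRPL38, MRPL16 and MRPL51 had differences of -1.68 to -1.39 between 91 and 35 dpc. Of these MRPL15 had the tightest ages: its signals ran from 9.41 to 10.05 at 35 dpc, from 8.71 to 9.45 at 63 dpc and from 7.98 to 8.33 at 91 dpc. The 2 earlier ages met at their edges, and the 91 dpc arrays lay below both. MRPL43, MRPL2, MRPL24 and MRPL18 had differences of -1.25 to -1.07, and MRPL35, MRPL13, MRPL33, MRPL9 and MRPL30 of -0.84 to -0.73. All of these passed in each interval. MRPL48 had the smallest called fall between 91 and 35 dpc, -0.50 ± 0.11, of which -0.41 came before 63 dpc, and its second difference of -0.09 did not pass.

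Of the 21 large subunit members with a bacterial counterpart 17 fell and 3 rose, with a median of -1.07. Of the 16 found in mitochondria only, 13 fell and 1 rose, with a median of -0.96. MRPS30, which despite its symbol sits in the large subunit beside the related MRPL37, kept close to its early level at first: its medians were 7.85, 7.66 and 7.10 at 35, 63 and 91 dpc. Its first difference was -0.11 ± 0.11 and did not pass, and its second was -0.60 ± 0.11 and did. MRPL37 passed in both intervals, with differences of -0.48 and -0.59. MRPL44, which folds like ribonuclease III, and MRPL53 also passed in the second interval (-0.42 and -0.49) and not in the first (-0.23 and -0.07).

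Separation between single arrays shows the same picture. For 39 members every 91 dpc array lay below every 35 dpc array, against 18.7% of all probe sets. For MRPL1 alone every 91 dpc array lay above every 35 dpc array, against 21.4% of all probe sets. Between adjacent ages, 11 members had all 63 dpc arrays below all 35 dpc arrays (4.99% of all probe sets), and 12 had all 91 dpc arrays below all 63 dpc arrays (6.94%). The residual SD of a member had a median of 0.25 and ran from 0.14 for MRPS14 to 0.53 for MRPS36.

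**Figure D2:**
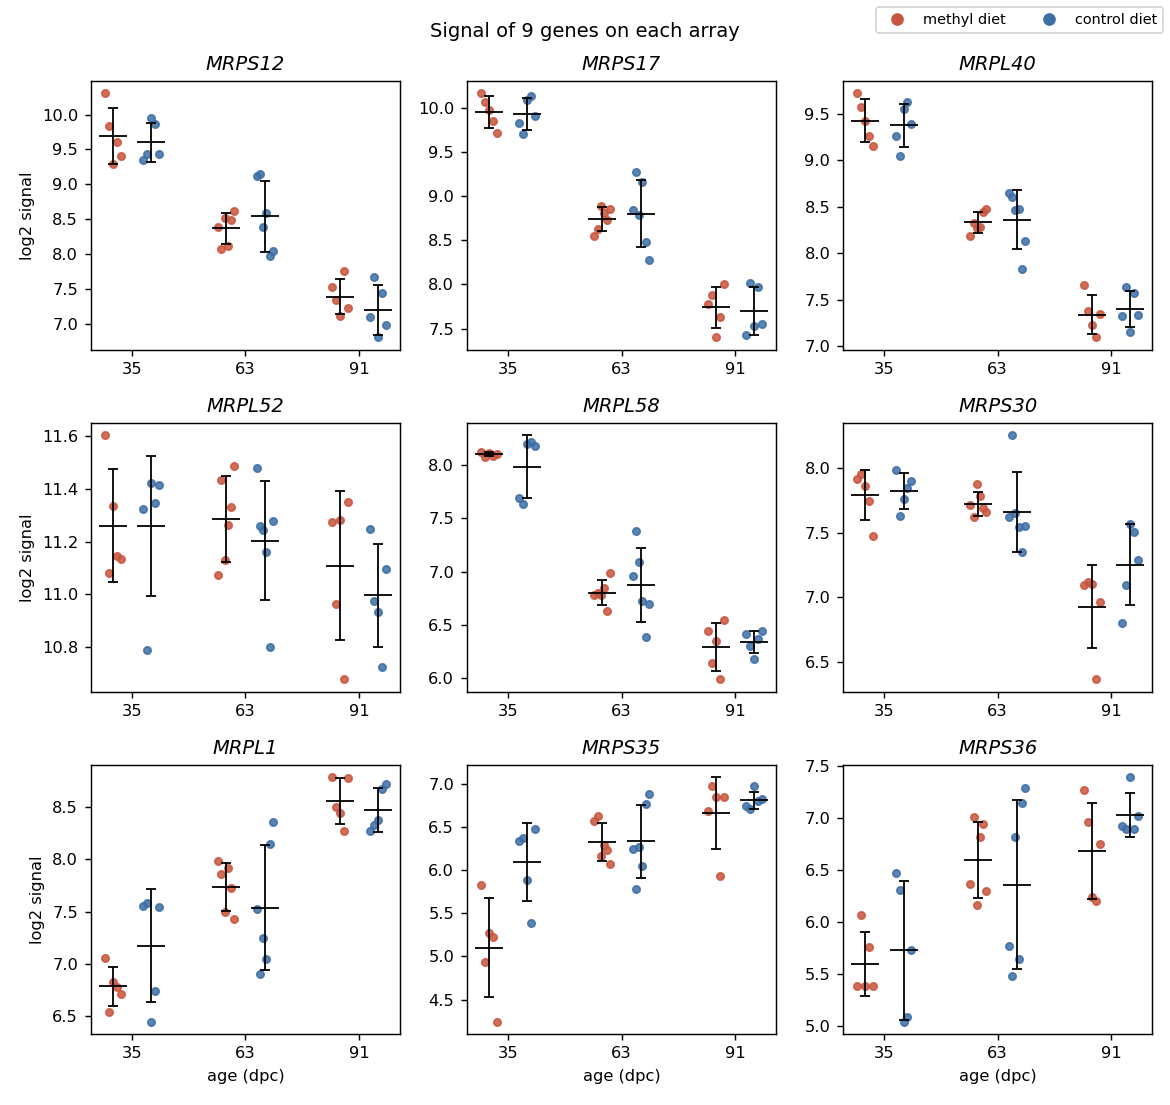
Log2 signal of 9 genes on each array against age in dpc, methyl diet left of control diet, with the group mean and SD as bars. MRPS12, MRPS17 and MRPL40 step down at each age without overlap, MRPL58 falls mostly before 63 dpc and MRPS30 after it, MRPL52 shows no step, and MRPL1, MRPS35 and MRPS36 climb.

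The 7 remaining called members went the other way by 91 dpc. MRPL1, the counterpart of the bacterial protein of the mobile stalk where spent tRNAs leave, had signals from 6.45 to 7.58 with a median of 6.81 at 35 dpc. They ran from 6.91 to 8.36 with a median of 7.62 at 63 dpc, and from 8.27 to 8.78 with a median of 8.47 at 91 dpc. All arrays at 91 dpc were above all arrays at 35 dpc, while the 63 dpc arrays overlapped both. The rise was 1.53 ± 0.17, or 2.89-fold (limma adjusted p = 9.99e-10), and it passed in each interval.

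MRPS35, a small subunit protein of mitochondria only, had medians of 5.61, 6.25 and 6.81 at 35, 63 and 91 dpc, and its arrays overlapped between all ages. Its rise by 91 dpc was 1.14 ± 0.17 (limma adjusted p = 7.38e-07). MRPL39, which resembles part of a threonyl-tRNA synthetase, had medians of 6.87, 7.33 and 7.55 and a rise of 0.63 ± 0.10. These 2 genes and MRPL1 were the 3 members that rose in both intervals, against 20.8% of all probe sets. The second rise of MRPS35 (0.40, limma adjusted p = 0.0379) and of MRPL39 (0.25, limma adjusted p = 0.0327) lay near the threshold. Both calls were lost without replicate 1 of the control diet or replicate 5 or 6 of the methyl diet at 63 dpc, or without replicate 1 or 2 of the methyl diet at 91 dpc, which leaves MRPL1 as the 1 member higher in that interval. The call of MRPL39 was also lost without replicate 4 of the control diet at 91 dpc. That of MRPS35 was also lost without replicate 2, 3 or 4 of the control diet or 3 of the methyl diet at 63 dpc, or replicate 3 or 5 of either diet at 91 dpc.

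MRPS36 is known in other animals as a small subunit of the alpha-ketoglutarate dehydrogenase complex rather than of the ribosome. Its signals had medians of 5.56, 6.58 and 6.91 at the 3 ages, with ranges that overlapped, and it had the largest residual spread of all members. Its rise was 1.19 ± 0.23 (limma adjusted p = 2.11e-05). On 3 arrays of the methyl diet at 35 dpc it has the same deposited value, 5.38, equal in every deposited digit. Equal values also occurred in other members, on 5 arrays each for MRPS22 and MRPS23.

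The other risers were small. MRPS9 had a difference of 0.33 ± 0.11, MRPL3, which lies near the peptidyl transferase centre, 0.26 ± 0.10, and MRPL19 0.23 ± 0.11, each past the limma threshold between 91 and 35 dpc. Under quantile normalization the calls of MRPS9 and MRPL19 in this contrast were lost. In the deposited values array medians averaged 3.89 at 35 dpc and 4.16 at 91 dpc. MRPL3 was highest in the middle: its medians were 9.57, 9.91 and 9.84, with a first difference of 0.39 and a second of -0.13 that did not pass. Its other tested probe sets had differences of 0.031 and 0.161 between 91 and 35 dpc, and neither passed. The call of MRPL19 (limma adjusted p = 0.0426) was lost when replicate 1, 4 or 5 of the control diet or replicate 1 or 5 of the methyl diet at 35 dpc was left out. It was also lost without replicate 2 or 3 of the control diet or replicate 1, 2, 3 or 5 of the methyl diet at 91 dpc.

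There were 6 members that passed in neither interval: MRPL19, MRPL32, MRPL50, MRPL52, MRPS10 and MRPS22. MRPL32, which is matured by a protease of the inner membrane in yeast and mice, had a difference of -0.22 ± 0.11 between 91 and 35 dpc. MRPS22, mutated in a human mitochondrial disease, had -0.27 ± 0.15. MRPL52, with a mean signal of 11.2 over all arrays, had medians of 11.33, 11.26 and 11.04 and a difference of -0.21 ± 0.10. MRPS10 had -0.21 ± 0.10 and MRPL50 had -0.13 ± 0.14. That these differences did not pass does not show that the levels were equal.

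MRPS23 lay near background. It averaged 3.32 at 91 dpc, where the 40th percentile of an array, taken as background, was 2.82 to 2.86, and it was above that level on 31 of 32 arrays. Its difference of -1.30 ± 0.10 may therefore be compressed at the low end.

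Several probe sets existed for 14 of the 58 genes, and 11 had more than 1 that could be tested. Their signs agreed for 9 of 11 genes between 91 and 35 dpc, for 10 between 63 and 35 dpc and for 7 between 91 and 63 dpc. The 3 probe sets of MRPS12 had differences of -2.35, -1.87 and -2.47 between 91 and 35 dpc. MRPL33 was the 1 gene with opposite calls: its brightest probe set, with a mean of 8.84, had a difference of -0.79 and a second one, with a mean of 5.11, had 0.44. MRPS9 also depends on the probe set, with 0.33 ± 0.11 by the one used and -0.46 (limma adjusted p = 0.0618) by the other.

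MRPS11 and MRPL46 are the only members that are direct neighbours among protein-coding genes in the RefSeq table for Sscrofa11.1, where 57 of the 58 symbols were found. They had differences of -1.46 and -1.32 between 91 and 35 dpc.

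The direction of most differences held in both kinds of arrays and in both diets. On the high-gap and low-gap arrays alone all 58 members had the same sign between 91 and 35 dpc, with medians of -1.14 and -1.02. The signs were the same for 54 of 58 in each of the shorter intervals. In the order 63 against 35, 91 against 63 and 91 against 35 dpc, 49, 47 and 53 members were called on all arrays. The high-gap arrays alone kept 47, 41 and 50 of these calls, and the low-gap arrays alone 36, 32 and 49. Between the high-gap and low-gap arrays 12 members differed, 2 higher and 10 lower on the high-gap arrays, against 24.1% of all probe sets. Under the methyl diet alone the median member difference between 91 and 35 dpc was -1.15, and under the control diet alone -1.02. The sign was the same in both diets for 57 of 58 members, the exception being MRPL50.

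Genes of the wider mitochondrial translation system did not all move with the ribosomal proteins. Of 4 tested mitoribosomal proteins with other names 3 fell by 91 dpc. They were GADD45GIP1 (-2.17), a large subunit protein at the exit tunnel, DAP3 (-1.01), the GTP-binding protein of the small subunit, and CHCHD1 (-0.83), whereas PTCD3 had -0.09 and did not pass. Of 7 translation factors 3 fell and 2 rose, beside 50.1% of all tested named genes lower and 33.6% higher in the same contrast. The elongation factor genes TUFM and TSFM had differences of -1.13 and -0.80 and the recycling factor gene MRRF had -1.09, while the elongation factor gene GFM1 had 1.15.

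Of 14 genes of mitoribosome assembly and mitochondrial RNA handling 9 fell and 4 rose, with a median of -0.75. TFB1M, which methylates the small subunit RNA, had -1.36 and the helicase gene DHX30 had -1.31, while GTPBP10, a GTPase of large subunit assembly, had 1.32. Of 7 tested genes of mitochondrial aminoacyl-tRNA synthesis 4 fell and 2 rose, with a median of -0.34. All tested named genes had 50.1% lower and 33.6% higher, around a median of -0.25. Of 2 genes of mitochondrial DNA copying and transcription 1 rose. SSBP1, which binds single-stranded mitochondrial DNA, had -0.08 and did not pass. TFAM, which packs mitochondrial DNA and acts in its transcription, had 2.23, with means of 7.17 at 35 dpc, 8.21 at 63 dpc and 9.40 at 91 dpc.

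The products of mitochondrial translation join nuclear-encoded subunits of oxidative phosphorylation. Of 60 such nuclear genes 49 were lower and 4 higher at 91 than at 35 dpc, with a median of -0.93, beside 46 lower and 7 higher of 58 and a median of -1.08 for the mitochondrial ribosome. Cytosolic ribosomal proteins, of which 62 were measured, had 27 lower and 21 higher, with a median of -0.055. Most of their signals lay near the top of the range of the arrays, where differences may be compressed, which was not tested. Their small median therefore does not show that the levels of these messages were steady. No test of the difference between these lists was made.

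**Figure D3:**
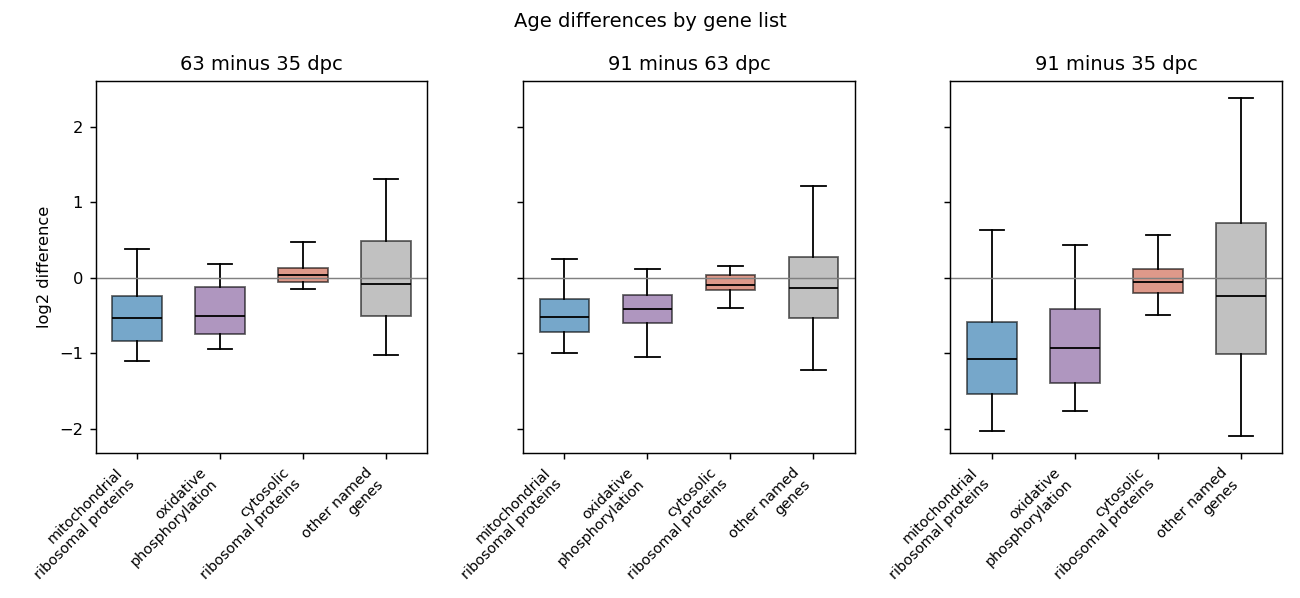
Box plots of log2 differences between ages for the 58 mitochondrial ribosomal protein genes, 60 oxidative phosphorylation genes, 62 cytosolic ribosomal protein genes and 5413 other named genes, with boxes over the quartiles and whiskers from the 5th to the 95th percentile. For 91 minus 35 dpc the medians are -1.08, -0.93, -0.055 and -0.24.

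Markers of other cells moved with age too. The mean log2 signal over all 58 members was 8.98 ± 0.12 at 35 dpc, 8.49 ± 0.14 at 63 dpc and 8.02 ± 0.11 at 91 dpc (SD; n = 10, 12 and 10). The mean over 8 erythroid markers ranged over 10.52 to 11.34, 10.06 to 10.86 and 8.04 to 9.38 on the arrays of these ages. By 91 dpc 6 of the 8 had fallen and HBB had risen, and at that age ALAS2, the heme enzyme of red cells, averaged 11.8 and KLF1 8.53, both above background. Of 14 cell cycle genes 13 fell by 91 dpc, and their mean ranged over 9.32 to 9.68, 8.55 to 9.22 and 6.86 to 7.68. Of 18 hepatocyte markers 10 rose and 4 fell, and their mean ranged over 13.57 to 14.03, 14.3 to 14.6 and 14.7 to 14.8.

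In whole tissue, fewer cells of a type and less RNA per cell cannot be told apart. The erythroid mean followed age: it ranged over 10.06 to 10.86 at 63 dpc and 8.04 to 9.38 at 91 dpc, without overlap. A fit with this mean as a covariate therefore cannot well separate it from age at 91 dpc. In that fit the median member difference was -0.54 between 91 and 63 dpc and -1.05 between 91 and 35 dpc. The medians without the covariate were -0.52 and -1.08. The number of members called lower was 7 and 37 with the covariate, against 44 and 46 without it. Over all probe sets lower calls also became fewer, 1069 and 2718 of 15327 (6.97% and 17.7%) with the covariate, against 4440 and 5989 without it. Between 63 and 35 dpc, where the erythroid ranges overlapped, 49 of 49 member calls were kept with the covariate. Lower calls over all probe sets in that interval were 3736 with it and 4293 without it. The part of the erythroid and cell cycle changes in the falls was not tested. Neutrophil markers, 6 of 6, were higher at 63 than at 35 dpc and lower at 91 than at 63 dpc, and of 8 macrophage markers 4 were higher and none lower at 91 than at 35 dpc.

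**Figure D4:**
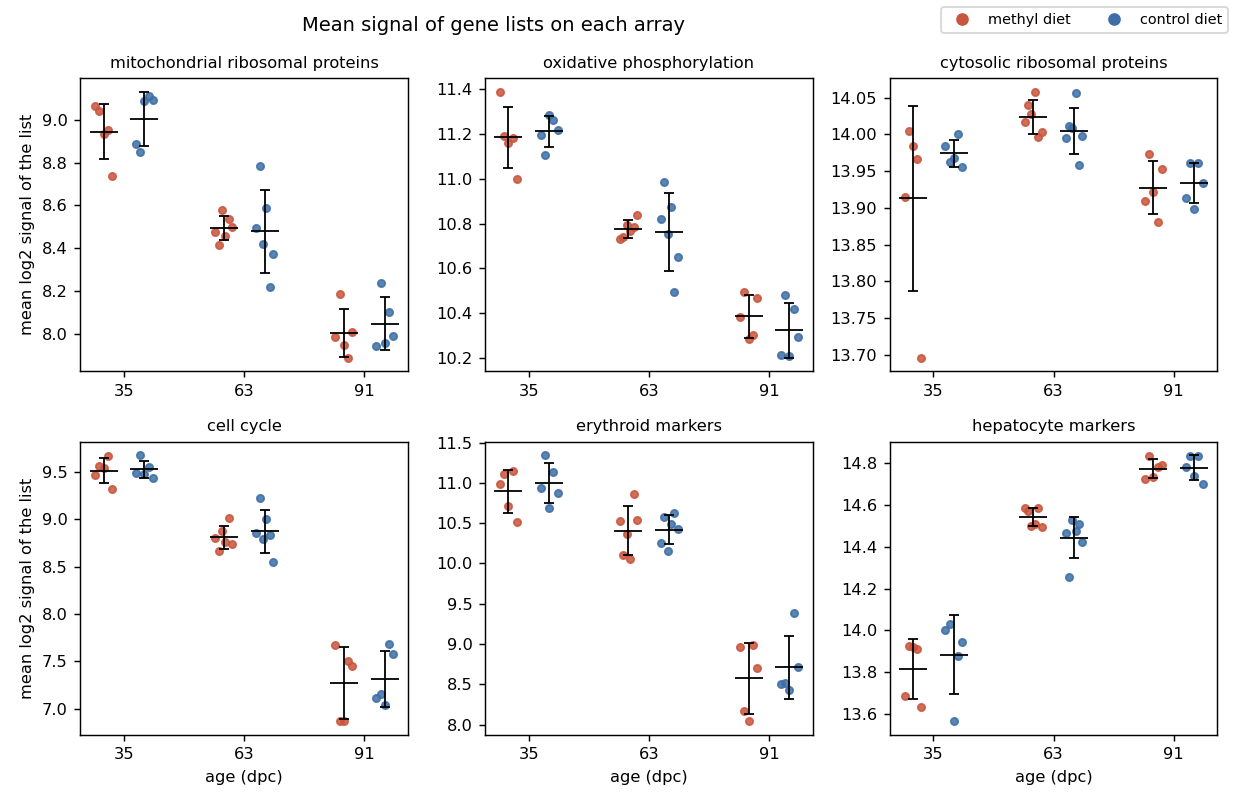
Mean log2 signal of 6 gene lists on each array against age in dpc, methyl diet left of control diet, with the group mean and SD as bars. Mitochondrial ribosomal proteins, oxidative phosphorylation, cell cycle and erythroid markers step down with age and hepatocyte markers step up, while the cytosolic ribosomal protein mean stays within 13.7 to 14.1 on every array.

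The maternal diet left no call among these genes. At 35 dpc the member mean was 8.95 ± 0.13 under the methyl diet and 9.01 ± 0.13 under the control diet (SD, n = 5 each). At 35, 63 and 91 dpc and averaged over ages, 0 of 58 members passed by limma, against 0.0391%, 0%, 0.0718% and 0% of all probe sets. The test of a diet effect that changes with age also called 0 members, and 0% of all probe sets. At an unadjusted limma p under 0.05 there were 5 members at 35 dpc (6.09% of all probe sets), 0 at 63 dpc (1.43%) and 0 at 91 dpc (6.52%). Averaged over ages there were 6 members (4.47%), and 1 in the interaction (4.31%).

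MRPS35 had the smallest p of all members. At 35 dpc its signals were 5.83, 4.94, 5.27, 5.23 and 4.25 under the methyl diet, and 6.34, 6.37, 5.89, 5.39 and 6.48 under the control diet. The methyl group overlapped the control group through a single array on each side. The difference, methyl minus control, was -0.99 ± 0.25 (limma adjusted p = 0.255), and it was -0.005 ± 0.22 at 63 dpc and -0.15 ± 0.25 at 91 dpc. Without replicate 5 of the methyl diet it was -0.78 (limma adjusted p = 0.530), and with array weights it was -1.14 and passed (limma adjusted p = 0.0289). The difference had the same sign on the high-gap and the low-gap arrays alone, -1.12 and -0.79.

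The other members with an unadjusted limma p under 0.05 at 35 dpc were MRPL50 (-0.53), MRPL30 (-0.27), MRPL19 (-0.37) and MRPL39 (-0.36), all lower under the methyl diet, with adjusted p of 0.642 to 0.763. Averaged over ages, MRPS35, MRPL30, MRPL46, MRPL50 and MRPL3 were lower under the methyl diet (-0.38 to -0.16) and MRPS7 was higher (0.19), each at an adjusted p of 0.999. None of these is a call. At 63 dpc the 5 smallest p values belonged to MRPL10 (0.22), MRPL53 (0.19), MRPS7 (0.17), MRPS22 (-0.24) and MRPS14 (0.12), methyl minus control. At 91 dpc they belonged to MRPL53 (-0.32), MRPS30 (-0.32), MRPL36 (-0.38), MRPL3 (-0.25) and MRPS27 (-0.30). In the interaction they belonged to MRPS35, MRPL53, MRPL39, MRPL10 and MRPL19. MRPL53 and MRPL10, higher under the methyl diet at 63 dpc, were lower under it at 91 dpc, and neither difference passed.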

How the data were processed

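RNA of 32 fetal livers was measured on 1 array each. The authors deposited 1 table of log2 signals for 24123 probe sets. GCOS 1.1.1 is named in the submitters' processing notes, without its role, and the background correction, summary and normalization behind the table are not given in the sources used here. The deposited log2 values were used unchanged, from 2.20 to 16.6, and array medians ran from 3.84 to 4.24. No column was left unused. Arrays give no read depth, so their number limits the precision.

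Control probe sets were left out, and 15327 probe sets above the 40th percentile of their array on at least 5 arrays were kept. The 6 group means were fitted by limma (3.58.1, under R 4.3.3 and version 1.17.8 of data.table) with an intensity trend and 26 residual degrees of freedom. Benjamini-Hochberg adjustment ran over all probe sets of a contrast. The fit was tried on simulated data for 63 against 35 dpc over 15327 probe sets, with noise drawn independently for each. It found 46 of 100 planted differences of 0.5 and 89 of 100 of 1 (log2), with 6 false calls. In the real contrast far more probe sets passed, 4293 lower and 4985 higher, so these rates do not give the sensitivity of age calls. No arrays were identical. Probe sets were named from the platform annotation, of which 6 with several entries that include such a symbol were left out.

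The members and lists were chosen with earlier results of these data known. The text names up to 6 largest rises and falls of each age contrast, the 5 smallest p of each diet contrast, the 4 brightest and 4 dimmest members, those with opposite probe sets or an outlying array, and several fixed symbols, and values of further members were added after they were seen. Alternatives were no trend, no filter, a stricter filter (60th percentile), array weights, quantile normalization, the spike-in gap as a block and the high-gap or low-gap arrays alone (a split at a gap of 1.2, found in the data, which the labels do not name as a batch), the erythroid mean as a covariate, averaging the probe sets of each gene, and leaving out each array. A planned search of promoter windows for motifs was not run here.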

Additional observations from a re-analysis of the deposited data

Results flagged for a closer look

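Within each group of 5 or 6 arrays, a single array stood apart from the others in 26 of 354 tests (7.34%), measured as its gap to the nearest array over the whole range of the group and read against Dixon's 95% critical value. Chance flags about 1 in 20 groups. Replicate 1 of the methyl diet at 35 dpc was high for MRPL14 (0.714), MRPL2 (0.775), MRPS2 (0.754), MRPS21 (0.796) and MRPS34 (0.725). Its MRPL14 signal was 11.5, with the other 4 arrays at 10.4 to 10.7. Its mean over 2 tested muscle markers, 6.42, was the highest of all arrays, and a link with these values was not tested. Replicate 2 of the methyl diet at 91 dpc was high for MRPL36 (0.829), MRPS11 (0.762), MRPS24 (0.821) and MRPS9 (0.743). These 2 arrays held the most such values.

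In the methyl diet groups, replicate 5 at 35 dpc was low for MRPS15 (0.892), replicate 2 at 63 dpc was low for MRPL37 (0.642), and replicate 4 at 91 dpc was low for MRPS30 (0.795) and MRPS35 (0.715). In the control diet group at 35 dpc, replicate 3 was low for MRPL39 (0.814) and replicate 2 for MRPL52 (0.844). At 63 dpc, control replicate 1 was low for MRPL19 (0.817), replicate 6 was high for MRPL3 (0.88) and low for MRPL32 (0.677), replicate 2 was high for MRPS2 (0.679) and MRPS30 (0.665), and replicate 5 was low for MRPS23 (0.779). At 91 dpc, control replicate 2 was high for MRPL16 (0.883) and MRPS7 (0.749), replicate 1 was low for MRPL3 (0.74) and MRPL33 (0.751), and replicate 3 was high for MRPS36 (0.738).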

How the results depend on the processing

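Among the age calls, 2 took the opposite sign under an alternative, both when the probe sets of each gene were averaged. There MRPS9 took -0.064 between 91 and 35 dpc and MRPL33 took the opposite sign between 63 and 35 dpc, and the median member difference between 91 and 35 dpc was -0.943. The count of members higher at 91 than at 63 dpc was 1 under quantile normalization, 1 on the high-gap and 1 on the low-gap arrays alone, and 0 when the erythroid mean was a covariate. The count higher at 91 than at 35 dpc was 4 on the high-gap arrays alone and 1 with the erythroid mean. The call of MRPL3 in that contrast was lost under both of these, with array weights and with probe sets averaged. On the low-gap arrays alone 1 member was higher at 63 than at 35 dpc. The erythroid mean left 7 of the 44 members lower at 91 than at 63 dpc, with a median difference over the members of -0.54, against -0.52 without it, while lower calls over all probe sets were 1069, against 4440 without it, and the cause was not tested. With array weights 1 member was called for diet at 35 dpc, MRPS35. The high-gap and low-gap arrays alone are fewer, 18 and 14.

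Leaving out 1 array gave 6 to 6 higher and 43 to 44 lower members between 63 and 35 dpc, 1 to 3 and 43 to 45 between 91 and 63 dpc, and 6 to 7 and 46 to 49 between 91 and 35 dpc. The medians ran from -0.59 to -0.51, -0.56 to -0.49 and -1.12 to -1.04, and diet calls stayed at 0. The calls lost were those of MRPS35, MRPL39 and MRPS2 between 91 and 63 dpc and of MRPL19 between 91 and 35 dpc. With the spike-in gap (high or low) as a block, 49 of 49, 47 of 47 and 53 of 53 age calls were kept. Quantile normalization put the median of all probe sets at -0.101 between 91 and 63 dpc and at -0.148 between 91 and 35 dpc, and the member medians at -0.56 and -1.17. No paired analysis was possible because replicate numbers only follow accession order.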

Other observations

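Of 4 tested genes of regulators of mitochondrial biogenesis, 2 were higher and 2 lower at 91 than at 35 dpc. Among all tested named genes 33.6% were higher and 50.1% lower. The 2 higher ones were PPARGC1A (3.80), a coactivator, and YY1 (1.08), a transcription factor. The 2 lower ones were PPRC1 (-1.51), a coactivator related to PPARGC1A, and MYC (-1.07). PPARGC1A averaged 2.69 at 35 dpc, below the 40th percentile of the arrays, so its fold change at the low end is uncertain.

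All 7 members that were higher at 91 than at 35 dpc had lower values under the methyl than under the control diet at 35 dpc, from -0.99 for MRPS35 to -0.13 for MRPS36, with a median of -0.36. None of the 7 differences passed. In the same contrast 8311 of all 15327 probe sets and 3098 of the 5593 named genes had lower values under the methyl diet. Of the 46 members that were lower at 91 dpc, 20 had lower values under the methyl diet at 35 dpc, with a median of 0.022. At 63 dpc 1 of the 7 was lower under the methyl diet, with a median of 0.13, and at 91 dpc 5 of the 7, with a median of -0.10. The 35 dpc arrays that give these differences also set which members counted as higher by 91 dpc. This arrangement was noticed in the data and was not tested.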
